A study of Mus musculus with 21 samples.

Results

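Myelin and oligodendrocyte genes were examined in the cortex of mice after high-frequency head impact (HF-HI). The members were Mbp, Mag, Mog, Mobp, Cnp, Cldn11 and Ugt8a, found by gene symbol among the Ensembl genes of the deposited table. All 7 were present among 5544 genes. The comparison was HF-HI against sham, and the covariation of the members across single libraries was followed as a possible measure of the white matter each sample held.

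Cortical total RNA was sequenced from male C57BL/6 mice, 12 weeks old, in 1 library per mouse. HF-HI mice (n = 11) received several closed-head impacts a day on consecutive days under isoflurane, and their brains were taken 24 h after the final impact. Sham mice (n = 10) had the same handling and anesthesia without impact. The labels name no engineered allele and no drug for either group. Each value is on a log2 scale after variance stabilization (VSD) by the authors, so a difference of values is a log2 difference.

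Oligodendrocytes wrap axons in myelin, a stack of lipid-rich membrane that speeds conduction and feeds the axon. The proteins of compact myelin hold the membrane layers together, other proteins form the seals and the contacts with the axon, and a separate set of enzymes makes the galactolipids of the sheath. The adult cortex is lightly myelinated, and the corpus callosum beneath it densely so. The 7 members cover these roles. Mbp encodes myelin basic protein, which compacts the cytoplasmic faces of the membrane, and Mobp encodes another basic protein of compact myelin. Cldn11 forms the tight junctions between the layers. Mag is a lectin at the axonal face, Mog sits on the outermost lamella, and Cnp encodes a phosphodiesterase of the non-compact channels. Ugt8a encodes the galactosyltransferase that makes galactocerebroside.

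The members lie at separate places in the genome (GRCm38, the assembly also called mm10; GENCODE annotation). Mobp is on chromosome 9 (120149707 to 120181484, plus strand) and Cnp on chromosome 11 (100574904 to 100591729, plus). Mag is on chromosome 7 (30899176 to 30914873, minus) and Mog on chromosome 17 (37010743 to 37023398, minus). Cldn11 (31149920 to 31164324, plus) and Ugt8a (125865271 to 125938619, minus) are both on chromosome 3. All 7 are protein-coding genes. Exons of Cnp overlap those of Dnajc7 on the opposite strand, and exons of Mobp overlap the transcript gene Gm38642 on the same strand, so reads there could be shared.

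RefSeq promoter windows (GRCm38.p6) were found for 6 of the 7 members. The 250 bases before the RefSeq start are printed 5′ to 3′ for Mag and Cnp, the tightest pair of genes in sham cortex, and for Mobp. They are also printed for Ugt8a, the member that followed the others least in HF-HI cortex. The RefSeq starts differ from the GENCODE starts given above. The Mag, Cnp and Mobp windows therefore reach into the GENCODE genes, and the Ugt8a window stops short of its gene. Capitals mark matches on either strand to ACAANG, a short core of the kind bound by SOX factors.
Mag, chr7:30914864-30915113, minus strand: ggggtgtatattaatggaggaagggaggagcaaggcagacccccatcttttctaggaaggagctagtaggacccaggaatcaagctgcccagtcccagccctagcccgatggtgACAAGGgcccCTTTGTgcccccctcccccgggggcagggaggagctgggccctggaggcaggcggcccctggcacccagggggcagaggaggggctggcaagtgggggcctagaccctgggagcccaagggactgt
Cnp, chr11:100574689-100574938, plus strand: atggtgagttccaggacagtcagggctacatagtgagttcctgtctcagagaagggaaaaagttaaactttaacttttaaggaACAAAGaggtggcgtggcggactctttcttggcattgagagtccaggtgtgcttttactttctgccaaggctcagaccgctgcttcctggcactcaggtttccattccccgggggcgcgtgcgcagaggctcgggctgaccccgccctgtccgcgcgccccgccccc
Mobp, chr9:120149492-120149741, plus strand: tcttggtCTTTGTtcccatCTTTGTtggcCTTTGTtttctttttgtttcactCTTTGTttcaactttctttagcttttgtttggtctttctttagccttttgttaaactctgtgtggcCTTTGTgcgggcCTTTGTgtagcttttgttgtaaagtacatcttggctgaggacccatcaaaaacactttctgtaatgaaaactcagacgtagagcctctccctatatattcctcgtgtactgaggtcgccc
Ugt8a, chr3:125938653-125938902, minus strand: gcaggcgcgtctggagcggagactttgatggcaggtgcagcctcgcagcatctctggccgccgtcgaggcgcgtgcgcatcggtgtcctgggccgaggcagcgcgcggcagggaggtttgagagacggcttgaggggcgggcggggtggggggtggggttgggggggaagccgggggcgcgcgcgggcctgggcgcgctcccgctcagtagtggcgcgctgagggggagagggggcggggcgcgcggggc

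The Mobp window held 6 matches in a run of similar short units, the Mag window 2, and the Cnp and Mog windows 1 each, whereas the Cldn11 and Ugt8a windows held 0. Of 32851 promoter windows of the same length, 36.3% held a match. A TATA box (TATAAA, either strand) was in 0 of the 6 windows and in 12.4% of all windows. The Ugt8a window was 76.8% G and C and the Mobp window 40.8%. A match of letters is a description and not a binding site.

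Across the whole table the groups were well separated, and for 21 of 21 libraries the nearest other library was of the same group. HF-HI replicate 9 stood farthest from any other library (Euclidean distance to its nearest neighbour 17.1, against 7.73 at the other end). Depth relative to the median library ran from 0.546 to 1.63, with medians of 0.865 in sham and 1.17 in HF-HI. The trend of the values on exonic GC content also moved with the group. Its slope per 10 percentage points of GC ran from -0.23 to 0.01 in sham and from -0.04 to 0.16 in HF-HI, and HF-HI replicate 9 had the lowest HF-HI slope. The differences of the members are therefore given also with this trend removed, and with both the trend and HF-HI replicate 9 removed where that changed a call. Those of other named genes are given with the trend removed where it changed a call or moved a called value by more than 1.5 times. Because the trend moved with the group, removing it also takes out any effect of impact that follows GC content. A technical trend and such an effect cannot be told apart. All 15 markers of cortical neurons looked for were in the table, with a summed level of 16.8 to 17.0 in sham and 17.0 to 17.2 in HF-HI.

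The members spanned a wide range of levels. Per kilobase of annotated exon, the sham means were 10.99 for Mbp, 10.25 for Mobp, 9.52 for Cnp, 9.12 for Cldn11, 8.05 for Mag, 7.85 for Mog and 7.67 for Ugt8a, on the log2 scale. Compact myelin genes thus stood at the top. In this order Mag and Mog, and Mog and Ugt8a, were closer to each other than the larger of their SDs between mice. In HF-HI cortex Cnp and Cldn11 were level, at 9.45 and 9.44 per kilobase, where sham Cnp had been above Cldn11 by 0.40.

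All members varied more between mice of a group than most genes. The SD within groups lay between 0.198 (Mobp) and 0.245 (Mog), against a median of 0.104 over the 5544 genes. Between 2.94% and 6.21% of genes had an SD at least as large. The same few libraries set the extremes. Sham replicate 4 was the highest sham library for 6 of the 7 members, and HF-HI replicate 9 was the lowest HF-HI library for 6 of the 7. HF-HI replicate 1 was the highest for 5. Relative depth was low in sham replicate 4 (0.578) and HF-HI replicate 9 (0.571), and high in HF-HI replicate 1 (1.39).

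**Figure D1:**
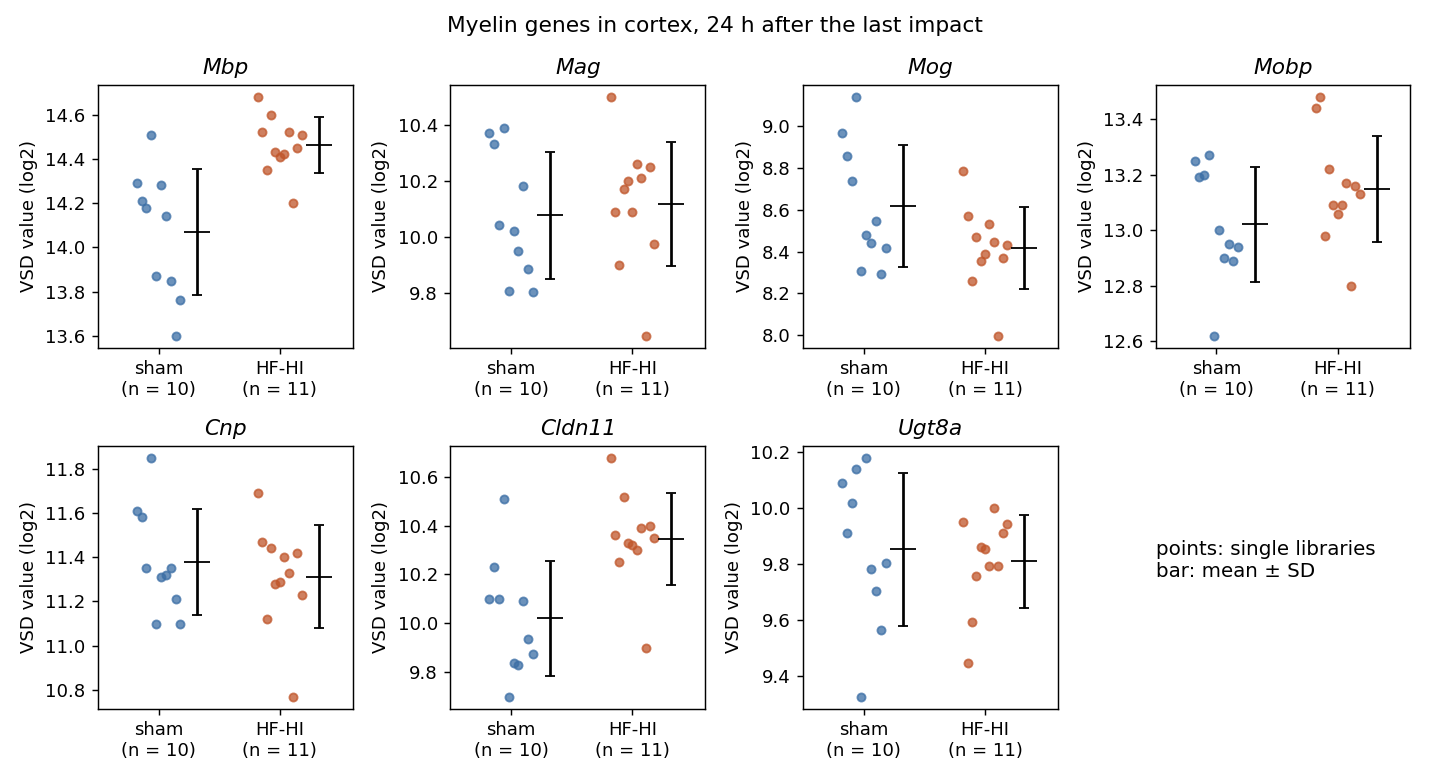
Deposited VSD value (log2, y axis) of each of the 7 myelin genes in each sham (blue, n = 10) and HF-HI (orange, n = 11) library; the bar beside the points is the mean ± SD. Mbp and Cldn11 sat higher in HF-HI, from 14.20 to 14.68 and from 9.90 to 10.68, and the groups overlapped for every member.

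Mbp and Cldn11 were higher in HF-HI cortex, and the other members did not pass the test. Thus 2 of 7 members were called at an adjusted p under 0.05 (limma, Benjamini-Hochberg over all genes), 2 higher and 0 lower. This share was small beside the background, since 66.3% of all genes tested were called, 32.6% higher and 33.6% lower. The members had larger SDs within groups than most genes, so a difference of a given size was harder to call for them. The shares therefore do not compare the sizes of the changes. The median difference of the members was 0.04, against -0.01 over all genes. The groups overlapped for 7 of 7 members, whereas 13.5% of all genes did not overlap. In bulk tissue, a change in the number of oligodendrocytes and a change in RNA per oligodendrocyte cannot be told apart.

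Mbp, the compacting protein, lies on chromosome 18 (82475146 to 82585637, plus strand) and is annotated with 16 transcripts. These include the longer golli forms that start upstream, which a value per gene does not separate. Mbp had sham values of 13.60 at the lowest, 14.16 at the median and 14.51 at the highest, and HF-HI values of 14.20, 14.45 and 14.68. All 11 HF-HI libraries lay above the sham median, and 4 lay above every sham library. The means were 14.07 ± 0.28 (SD, n = 10) and 14.46 ± 0.13 (SD, n = 11). The difference was 0.39 ± 0.09 (SE), a 1.31-fold higher level (limma adjusted p = 0.00039). Leaving out each library in turn gave 0.34 to 0.44.

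Cldn11, the tight junction protein of the sheath, ran from 9.70 through a median of 10.01 to 10.51 in sham and from 9.90 through 10.35 to 10.68 in HF-HI. 10 of 11 HF-HI libraries lay above the sham median, and the exception was HF-HI replicate 9. The means were 10.02 ± 0.24 and 10.35 ± 0.19 (SD). The difference was 0.33 ± 0.09 (SE), or 1.25-fold (limma adjusted p = 0.0020), and stayed between 0.29 and 0.38 when any 1 library was left out.

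Mobp, the other basic protein of compact myelin, went from 12.62 through 12.98 to 13.27 in sham and from 12.80 through 13.13 to 13.48 in HF-HI. The groups overlapped broadly although 10 of 11 HF-HI libraries exceeded the sham median. Its difference of 0.13 ± 0.08 (SE) did not pass the test (limma adjusted p = 0.169).

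Mog, on the outer lamella, was the only member with an estimate below -0.1. Sham values were 8.30, 8.51 and 9.14 (lowest, median, highest) and HF-HI values 7.997, 8.43 and 8.78, with 8 of 11 HF-HI libraries below the sham median. The 4 highest sham values were those of replicates 1 to 4, as they also were for Mobp and Cldn11. The means were 8.62 ± 0.29 (SD) in sham and 8.42 ± 0.20 in HF-HI. The difference was -0.20 ± 0.10 (SE; limma adjusted p = 0.0778), just outside the threshold. Mog crossed it with the medians of the libraries centred (-0.25, limma adjusted p = 0.0266), with quantile normalization (-0.29, p = 0.0111) and without sham replicate 5, sham replicate 9 or HF-HI replicate 1 (limma adjusted p from 0.0364 to 0.0412).

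Mag, Cnp and Ugt8a were close to level. Mag, the axonal lectin, ran from 9.80 through 10.03 to 10.39 in sham and from 9.645 through 10.17 to 10.50 in HF-HI, a difference of 0.04 ± 0.09 (SE; limma adjusted p = 0.707). Cnp had a median of 11.33 in both groups, with a range of 11.10 to 11.85 in sham and 10.77 to 11.69 in HF-HI (difference -0.07 ± 0.09 SE, limma adjusted p = 0.547). Ugt8a, the galactolipid enzyme, had medians of 9.86 and 9.86 and ranges of 9.33 to 10.18 and 9.45 to 9.999 (difference -0.04 ± 0.09 SE, limma adjusted p = 0.685). The 95% intervals of these differences were -0.15 to 0.23 for Mag, -0.26 to 0.13 for Cnp and -0.23 to 0.14 for Ugt8a, so a change of the size seen for Mbp lay outside each of them. The sign of Mag turned with the scaling, to -0.01 with library medians centred.

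The members differ in GC content, from 38.3% for Ugt8a to 55.2% for Mag, beside a table median of 47.6%. With the GC trend of each library removed, 4 of 7 members were called, against 60.2% of all genes. Mbp (0.31, limma adjusted p = 0.0058) and Cldn11 (0.26, p = 0.0118) were again higher. Mog (-0.25, p = 0.0305) and Cnp (-0.22, p = 0.0446) were then lower, Mag stood at -0.12 (p = 0.217) and Ugt8a at 0.10 (p = 0.267). Mobp stood at 0.06 (limma adjusted p = 0.549). Without HF-HI replicate 9 in the same fit, Mog (-0.22, p = 0.0561) and Cnp (-0.18, p = 0.0823) missed the threshold while Mbp (0.33) and Cldn11 (0.29) passed it. The part of the GC trend in the differences between members was not tested further.

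Within a group the members moved together from mouse to mouse. In sham cortex the Pearson correlation between 2 members was positive for 21 of 21 pairs, with a median r of 0.82 and a range of 0.57 to 0.95 over 10 libraries. After Benjamini-Hochberg adjustment over 42 tests, 18 of 21 pairs passed (permutation test of 100000 resamples, two-sided). The closest were Mag and Cnp (r = 0.948, rho = 0.988, permutation adjusted p = 0.00042) and Mog and Cnp (r = 0.948, rho = 0.927, p = 0.00084). The 3 pairs that did not pass were Mbp with Cldn11 (r = 0.582, permutation adjusted p = 0.0922), Mag with Ugt8a (r = 0.634, p = 0.0612) and Cldn11 with Ugt8a (r = 0.57, p = 0.0989). Over all pairs of the 5544 genes the median r in sham was 0.00, and 1.26% of pairs had an r at or above 0.82. Pairs of genes in 1 table share their libraries and their normalization and are not independent.

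In HF-HI cortex (n = 11) the median r was 0.881, and 15 of 21 pairs passed. These were the pairs without Ugt8a, with r from 0.716 to 0.957. The highest was Mbp with Cldn11 (r = 0.957, rho = 0.927, permutation adjusted p = 0.00063), the pair of genes called higher. Among all gene pairs, 0.257% had an r at or above 0.881. The HF-HI correlations rested in part on few libraries. With the 2 libraries farthest from the median of the first gene left out, the median r was 0.541 in HF-HI and 0.773 in sham, and by Spearman's rho 10 HF-HI pairs passed with a median rho of 0.636. Without HF-HI replicate 9 the median r was 0.749 and 13 pairs passed. In sham, 12 pairs passed without sham replicate 4 and 21 without sham replicate 6.

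By Pearson r, Ugt8a stood apart from the other members in HF-HI. Its median r with them was 0.695 in sham, with a range of 0.57 to 0.859, and 0.153 in HF-HI, with a range of -0.14 to 0.351. HF-HI replicate 2 illustrated this, since it had the highest Mobp value of its group (13.48) and the lowest Ugt8a value (9.447). HF-HI replicate 9, lowest for the other 6 members, had a Ugt8a value of 9.793, near the group mean of 9.81. By Spearman's rho the HF-HI pairs of Ugt8a ran from 0.08 (Cnp) to 0.545 (Mag). That of Mag with Ugt8a was above Mag with Mbp (0.5) and Mobp (0.473), and below Mag with Mog, Cnp and Cldn11. With the 2 libraries farthest from the median of the first gene left out, r with Ugt8a ran from -0.206 (Mog) to 0.541 (Mobp). The difference between the groups was tested for each pair after the correlations had been seen. The lowest p was that of Mbp with Ugt8a (r of 0.799 in sham and 0.206 in HF-HI, permutation p = 0.0109, adjusted p = 0.23), so 0 of 21 pairs passed and a difference between the groups was not shown.

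**Figure D2:**
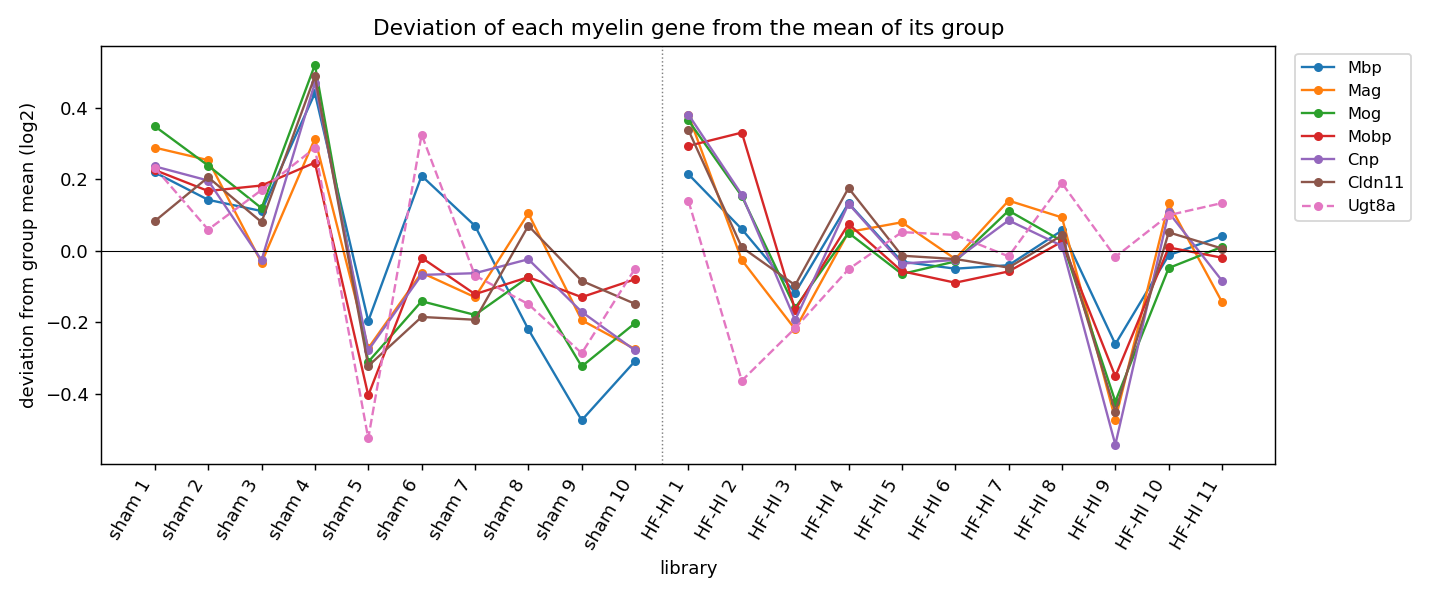
Deviation of each myelin gene from the mean of its own group (log2, y axis) in each of the 21 libraries (x axis); libraries of a group have no order, and the lines only join the points of a gene. Most members sat high together in sham replicate 4 and HF-HI replicate 1 and low together in sham replicate 5 and HF-HI replicate 9, and Ugt8a (dashed) parted from them in HF-HI replicates 2 and 9.

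**Figure D3:**
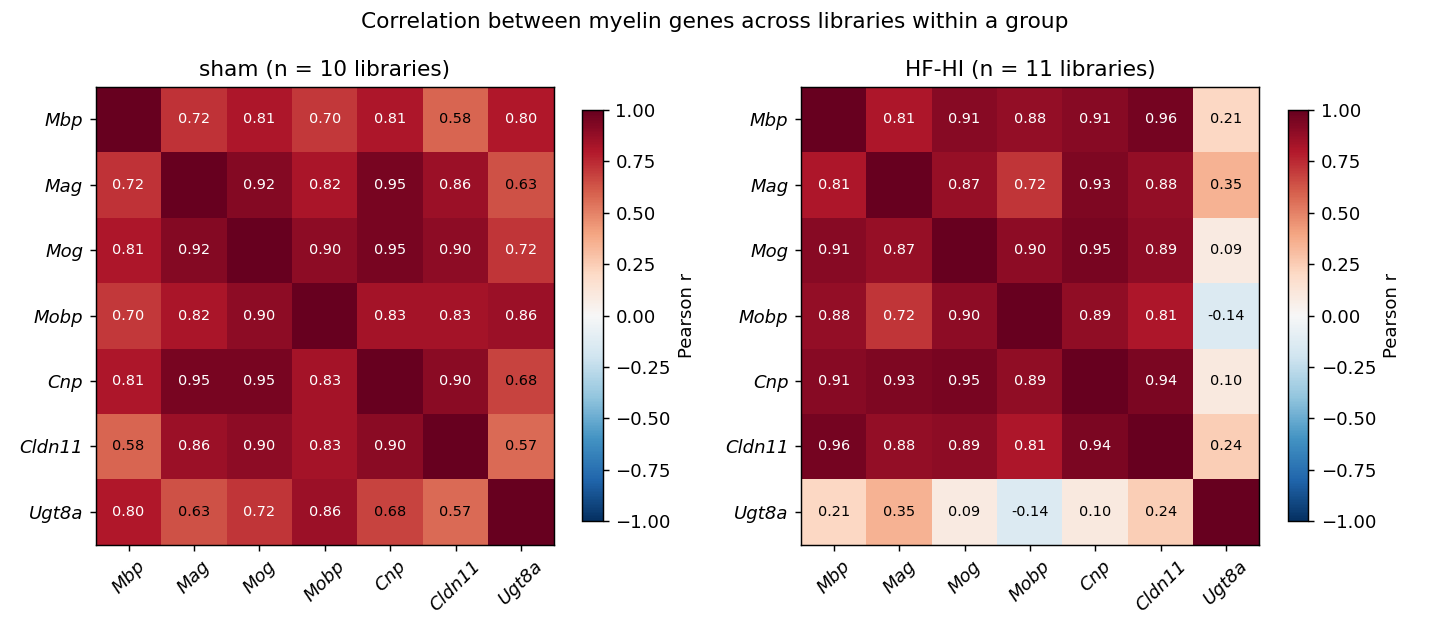
Pearson r between each 2 myelin genes across the libraries of a group, sham on the left (n = 10) and HF-HI on the right (n = 11), on a colour scale from -1 to 1. In sham r ran from 0.57 to 0.95, and in HF-HI the Ugt8a row and column ran from -0.14 to 0.35 while the other pairs ran from 0.72 to 0.96.

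The members were also set against the depth of each library and its GC slope within each group. Of 28 relations, 0 passed by r and 0 by rho, and 7 had an unadjusted permutation p under 0.05 for r. The strongest were Mag with relative depth in HF-HI (r = 0.769, rho = 0.627, permutation p = 0.00365, adjusted p = 0.102, r = 0.586 without the 2 farthest libraries) and Ugt8a with GC slope in sham (r = -0.755, rho = -0.818, permutation p = 0.0112, adjusted p = 0.119, r = -0.727 without them).

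Ratios between members within a library do not depend on how that library was scaled, and they show how evenly the members moved. Of the 21 log2 ratios, 15 differed between HF-HI and sham after adjustment over the 21 (permutation test of 100000 resamples, two-sided), a share of 71.4%. Of all gene pairs in the table, 53.6% had a standardized difference at least as large as the smallest among those 15 (1.31 pooled SDs), so unequal change was common throughout. The median absolute difference was 0.24 for member pairs and 0.22 for all gene pairs. For 4 of the 21 ratios (19%) the groups did not overlap, beside 14.2% of all gene pairs.

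The 4 separated ratios paired a member that was called higher with Mog or Cnp. The log2 ratio of Mbp over Mog was 5.45 ± 0.18 (SD) in sham, at most 5.80, and 6.05 ± 0.10 in HF-HI, at least 5.89. That of Mbp over Cnp was 2.69 ± 0.17, at most 2.97, and 3.15 ± 0.13, at least 2.99. Both ratios were higher in each HF-HI mouse than in any sham mouse, by 0.59 and 0.46 on average. The ratio of Mog over Cldn11 was -1.40 ± 0.13 in sham and -1.93 ± 0.09 in HF-HI, and that of Cnp over Cldn11 was 1.36 ± 0.11 and 0.97 ± 0.09. Each of these differences had a permutation p of 1e-05, the smallest that the resamples can give (adjusted p = 5.25e-05).

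Of the ratios, 6 did not pass. Mbp over Cldn11 was 4.05 ± 0.24 in sham and 4.12 ± 0.08 in HF-HI (difference 0.07, permutation p = 0.399, adjusted p = 0.422). Mag over Cnp had small SDs, -1.30 ± 0.08 and -1.20 ± 0.09, and its difference of 0.11 passed the test (permutation adjusted p = 0.0105). Mag over Mobp (-0.09, adjusted p = 0.233) did not pass. The ratios to Ugt8a depended on the GC trend. As deposited, those of Mbp (0.44) and Cldn11 (0.37) over Ugt8a passed (permutation adjusted p = 0.00018 and 0.00288), and those of Mag (0.08), Mog (-0.16), Mobp (0.17) and Cnp (-0.02) did not. With the GC trend removed, Mbp over Ugt8a was 0.21 (permutation adjusted p = 0.0201) and Cldn11 over Ugt8a missed the threshold (0.15, p = 0.0751). Mag (-0.23, permutation adjusted p = 0.00525), Mog (-0.36, p = 0.00275) and Cnp (-0.32, p = 0.00334) over Ugt8a then passed, as did Mag over Mobp (-0.18, p = 0.00796), while Mog over Cnp no longer did (-0.04, p = 0.36). The groups of the 4 separated ratios did not overlap with the GC trend removed either. Leaving out any 1 library left 15 or 16 ratios past the threshold.

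**Figure D4:**
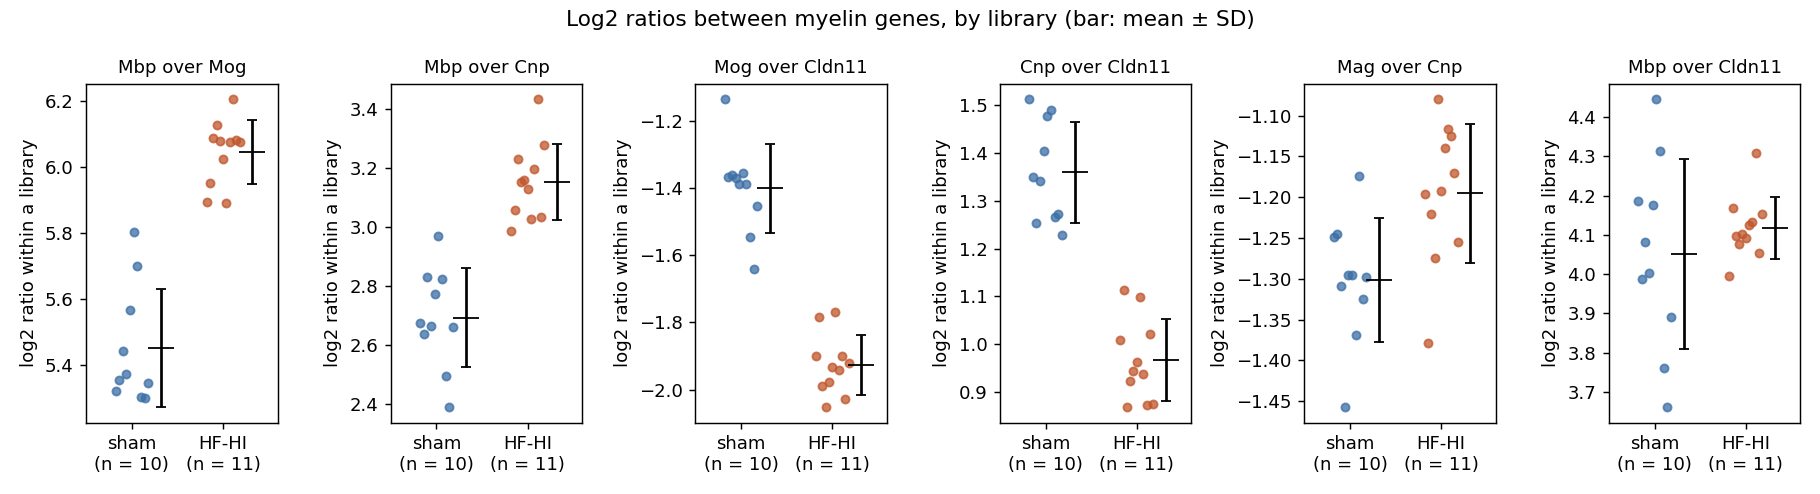
Log2 ratio of 2 myelin genes within each library (y axis) for sham (blue, n = 10) and HF-HI (orange, n = 11), with the mean ± SD beside the points. In the first 4 panels the groups did not overlap (Mbp over Mog at most 5.80 in sham and at least 5.89 in HF-HI), and in the last, Mbp over Cldn11, the means were 4.05 and 4.12.

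The genes that varied most like the members, beyond the groups, included other genes of the oligodendrocyte. The likeness was Pearson's r between a gene's deviations from its group means and the mean standardized deviation of the members, over 21 libraries. Among the 10 highest were Trf (0.952), Gpr37 (0.912), Sept4 (0.902), Plekhh1 (0.882), Gatm (0.870), Nbas (0.867), Tspan2 (0.855), Slain1 (0.847) and Tmem88b (0.843). Trf encodes transferrin, which oligodendrocytes make in the brain, and Gpr37 is an orphan receptor of these cells. 6 of the 10 belong to a list of 29 other mature oligodendrocyte genes in the table, where the median r was 0.726, against -0.01 over the 5537 genes outside the members. 20 of the 29 had an r over 0.5, as did 359 of the 5537. Markers of other cells were less alike, with a median r of 0.288 for 13 astrocyte markers, 0.222 for 12 striatal markers, -0.08 for 8 precursor genes and -0.37 for 15 neuron markers. These values share libraries and are given as a description.

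Of the 10 genes only Nbas (-0.21 ± 0.04 SE, limma adjusted p = 7.1e-05) and Tmem88b (0.40 ± 0.08, limma adjusted p = 0.00012) differed between the groups, in opposite directions. For Nbas the groups did not overlap. Of all genes, 66.3% were called and 13.5% did not overlap. Slain1 (-0.22, limma adjusted p = 0.0022) and Sept4 (-0.24, p = 0.0062) were also lower with the GC trend removed. Trf, with the highest r, had a difference of -0.09 ± 0.09 (SE; limma adjusted p = 0.425), which did not pass. Without HF-HI replicate 9, 5 of the 10 kept their place among the 10 most like genes, and 5 did so with the GC trend removed.

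The wider set of mature oligodendrocyte genes split evenly, as did all genes (32.6% higher, 33.6% lower). Of 48 such genes looked for, 29 were in the table. Of these 29, 7 were higher in HF-HI and 7 lower, with a median difference of -0.04 and a range of -0.28 to 0.40. The share called was 48.3%, beside 66.3% of all genes. The 5 largest called differences were those of Tmem88b (0.40), Phldb1 (0.32), Qdpr (-0.28, limma adjusted p = 0.0018), Pex5l (-0.28, p = 5.3e-05) and Gjc3 (0.26, limma adjusted p = 0.001). Gjc3 encodes connexin 29, Pex5l a channel-binding protein and Qdpr dihydropteridine reductase. Car2, the carbonic anhydrase of oligodendrocytes, was also lower (-0.25, limma adjusted p = 0.0047), as was Aspa (-0.25, p = 0.0042), which cleaves N-acetylaspartate. Of genes that did not pass, Mal (-0.15), Ermn (-0.20) and Sept4 (-0.11) had negative estimates and Apod (0.18) and Gpr37 (0.06) positive ones. Also not past the threshold were Tspan2, Pllp, Anln, Trf, Gsn, Enpp2, Sirt2, Lpar1 and Ptgds, with differences from -0.09 to 0.11. Phldb1 (59.8% GC) did not pass once the GC trend was removed (0.03, limma adjusted p = 0.664), nor did Aspa (39.5% GC, -0.12, p = 0.14). Pllp, Gsn, Sept4 and Sirt2 then passed as lower, from -0.17 to -0.28 (limma adjusted p at most 0.0245). The list then held 3 genes higher and 10 lower, beside 1620 higher and 1715 lower of the 5539 genes tested in that way.

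**Figure D5:**
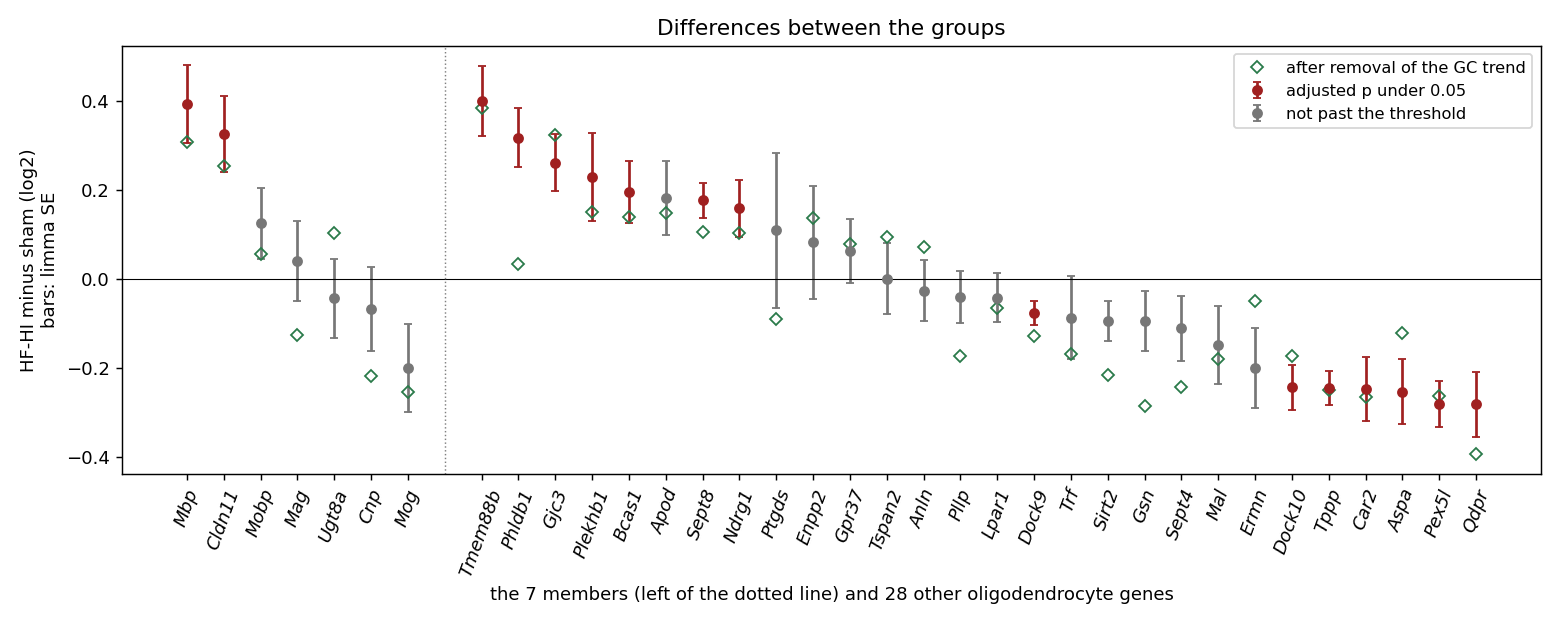
Log2 difference, HF-HI minus sham, of the 7 myelin genes (left of the dotted line) and of 28 other mature oligodendrocyte genes; filled points are limma estimates with their SE, red where the adjusted p was under 0.05, and green diamonds are the estimates with the GC trend removed. Differences ran from -0.20 to 0.39 among the members and from -0.28 to 0.40 among the other genes, and Phldb1 moved from 0.32 to 0.03.

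Genes of myelin lipid synthesis also went both ways. Of 13 in the table, Ugt8a included, 5 were higher and 4 lower, and the median difference was -0.04. The share called was 69.2%, close to the 66.3% of all genes. Higher were Psap (0.22, limma adjusted p = 2.2e-05), the saposin precursor, which was at 0.07 (p = 0.0286) with the GC trend removed, and Cers2 (0.20, p = 0.0175), the ceramide synthase for very long chains, which did not pass with the GC trend removed (0.11, limma adjusted p = 0.163). Aspa (-0.25), the acyl-CoA synthetase gene Acsl3 (-0.17, limma adjusted p = 0.0022) and the sphingosine phosphate lyase gene Sgpl1 (-0.16, p = 0.0018) were lower. Ugt8a, Elovl5 (-0.03), Elovl6 (-0.08) and Smpd1 (-0.07) did not pass. With the GC trend removed Smpd1 was lower (-0.21, limma adjusted p = 1.2e-05), and Acsl3 was at -0.09 (p = 0.0414).

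Few genes of the oligodendrocyte lineage upstream of myelin were in the table, 5 of 16 transcription factors and 8 of 20 precursor genes looked for. Of 5 transcription factors, 2 were higher (40% called, beside 66.3% of all genes). Olig1, a factor of precursors and mature cells, rose by 0.32 ± 0.08 (SE; limma adjusted p = 0.00098), but had 61% GC and stood at 0.01 (p = 0.922) with the GC trend removed. Zeb2 was higher by 0.13 (limma adjusted p = 0.0042), and by 0.08 (p = 0.0725) with library medians centred. Zfp536 (0.09), Sox5 (0.03) and Yy1 (-0.08) did not pass. The likeness to the members was 0.60 for Olig1 and 0.33 for Zfp536, but -0.27 for Zeb2, -0.25 for Sox5 and -0.03 for Yy1. Which cells these values came from was not tested. Of 8 precursor genes 3 were higher and 1 lower (50% called, beside the same 66.3%). Fyn, the kinase that relays axonal signals to myelin and is also used in neurons, was higher by 0.39 ± 0.05 (SE; limma adjusted p = 3.5e-07), with no overlap between the groups. The groups did not overlap for 1 of the 8 precursor genes, beside 13.5% of all genes. Serpine2 (0.17) and Tnr (0.14) were higher and Vcan (-0.12) lower. Tnr missed the threshold with library medians centred (0.09, limma adjusted p = 0.184) and without any 1 of 9 libraries (sham replicates 3, 4, 6 and 7 and HF-HI replicates 2, 4, 5, 7 and 10). Vcan missed it with the GC trend removed (-0.04, p = 0.463) and without sham replicate 1, sham replicate 4 or HF-HI replicate 5. Of the rest, Pdgfra (-0.08), the growth factor receptor that defines precursors, Ptprz1 (-0.01), Bcan (0.08) and Cspg5 (0.01) did not pass. With the GC trend removed Pdgfra (-0.11, limma adjusted p = 0.0268), Bcan (-0.19, p = 0.0101) and Cspg5 (-0.09, p = 0.0123) were lower and Ptprz1 higher (0.11, p = 0.0191).

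Most genes of the contact between axon and sheath were called. Of 28, 14 were higher and 8 lower, with a median of 0.09, and 78.6% were called beside 66.3% of all genes. Lingo1, an axonal inhibitor of myelination, had the largest difference (0.96 ± 0.06 SE, limma adjusted p = 9e-11), followed by Rtn4r, the Nogo receptor (0.75 ± 0.07, p = 5.8e-09). Sptbn4, the spectrin of the node (0.57), Cadm3 (0.44) and Cntn2 (0.44) completed the 5 largest. Sptbn4 (63.2% GC) was at 0.20 (limma adjusted p = 0.0209) and Cntn2 at 0.28 (p = 7.9e-05) with the GC trend removed. Most of these are neuronal genes. Of these 5, the groups did not overlap for Lingo1, Rtn4r and Cadm3. The groups did not overlap for 6 of the 28 genes, beside 13.5% of all genes. Lingo1 and Rtn4r were at 0.66 and 0.39 with the GC trend removed (limma adjusted p = 1.5e-09 and 1.8e-05). Epb41l3, Sptbn1, Kcna2, Cadm1, Cadm4 and Rtn4 did not pass, with differences from -0.10 to 0.07. With the GC trend removed, Cadm4 (60% GC) stood at -0.29 (limma adjusted p = 3.2e-05), and Sptbn1 (0.08, p = 0.0142) and Kcna2 (0.09, p = 0.0319) also passed.

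Markers of other cells were called at shares near the 66.3% of all genes for neurons (73.3%), astrocytes (69.2%) and endothelium (66.7%), and at 33.3% for striatal markers. 10 of 15 neuron markers were higher and 1 lower (median 0.16), led by Nrgn (1.32), Slc17a7 (0.89), Rbfox3 (0.83), Stmn2 (0.70) and Slc32a1 (0.64). Of 13 astrocyte markers 5 were higher and 4 lower, with Ntsr2 (0.47), Gja1 (0.39), Gfap (0.29), S100b (-0.20) and Acsbg1 (-0.20) foremost. Of 15 microglia markers looked for, only 3 were in the table. All 3 were called, 1 higher (Csf1r, 0.13) and 2 lower, Ctss (-0.30) among them. Of 12 endothelial markers looked for, only 3 were in the table, and Flt1 (0.28) was higher and Slco1a4 (-0.24) lower. Of 12 striatal markers, which bear on where the cortex was cut from the tissue beneath it, 2 were higher (Rasd2 0.43, Foxp1 0.39) and 2 lower (Drd1 -0.36, Pde1b -0.34). Foxp1 did not vary like the rest of this list. Its SD in HF-HI was 0.11, against 0.28 to 0.44 for the others. Its likeness to the members was -0.41, against 0.03 to 0.40. With the GC trend removed, Gfap (0.19, limma adjusted p = 0.155) and Csf1r (-0.0038, p = 0.939) did not pass, and Gfap also missed the threshold without sham replicate 10 or HF-HI replicate 8. Slc32a1 was then at 0.30, Slco1a4 at -0.10, Acsbg1 at -0.39 and Rasd2 at 0.26, each still past the threshold. The summed striatal level ran from 14.4 to 14.9 in sham and from 14.1 to 15.1 in HF-HI. The choroid plexus marker Ttr and the 2 hemoglobin genes did not pass. The part of these cells in the myelin results was not tested.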

How the data were processed

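The authors made total RNA libraries from whole cortical tissue, aligned reads with STAR to mm10, used eXpress for counting and normalized with DESeq2. The table the authors deposited holds variance-stabilized log2 values, 1 per Ensembl gene and mouse, and no read counts were used here. The version of STAR, the strand setting of the counting and the annotation are not given in the sources used here. Groups and replicate numbers came from the labels. The members and gene lists were chosen with earlier results of these data known.

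Symbols, positions and exonic GC content came from GENCODE M21 (5539 of 5544 genes matched). Sham and HF-HI were compared by limma (version 3.58.1, R 4.3.3) with a mean-variance trend, two-sided, with Benjamini-Hochberg adjustment over all genes and a threshold of 0.05. Correlations and ratios were tested with 100000 permutations in Python 3.11.15. GC trends were removed per library by lowess (span 0.3). Total depth is unknown, and relative depth was estimated from the spacing of values. The limma and permutation steps were tested on simulated data. Named were the members, up to 5 called genes of each list with the largest differences, genes of the oligodendrocyte lists not called, and the 10 genes most like the members. Car2 was named after its values were seen. Some genes that count in these lists are not reported by name here. Alternatives were other scalings, a replicate block, a filter on low values, a threshold of 0.1 and each library left out.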

Additional observations from a re-analysis of the deposited data

Results flagged for a closer look

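Within the sham group, 134 sets of 10 values (members, their log2 ratios, named genes and library measures) were examined for a library whose gap to the nearest other exceeded the 95% critical share of the group's range for 10 samples. There were 7 such sets, and chance flags about 1 in 20. Sham replicate 6 was low for the log2 ratio of Mobp over Ugt8a (2.825, next 3.117) and of Cldn11 over Ugt8a (-0.34, next 0.02). Sham replicate 4 was high for Tspan2 (11, next 10.64) and Gfap (9.258, next 8.853). Sham replicate 10 was low for Dock10 (9.46, next 9.619) and high for Zeb2 (12.05, next 11.88), and sham replicate 6 was low for Cntnap2 (10.87, next 11.02). The HF-HI group of 11 was not examined in this way.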

How the results depend on the processing

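Mbp and Cldn11 were called higher under every alternative run. The count of members called was 2, and 3 to 4 under the threshold of 0.1 (3), centring (3), quantile normalization (3), the replicate block (3) and the removal of the GC trend, alone (4) or with the block (4). Leaving out 1 library gave 2 to 3. Mag turned from 0.04 to -0.012 with centring, -0.00087 with quantile normalization, -0.12 with the GC trend removed, -0.12 with block and GC trend, and -0.0898 with the GC trend removed and HF-HI replicate 9 left out, a setting chosen after seeing the data. Ugt8a turned from -0.04 to 0.10, 0.10 and 0.11 in the last 3. The causes were not tested. Over all genes, 4 of 10 same-numbered pairs correlated above 0.1 and 0 matched best with their own number. This check cannot show whether or not the numbers pair the mice. Under the block Mog passed (-0.20, limma adjusted p = 0.0202).

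Lipid synthesis calls went from 9 to 5 with block and GC trend and to 4 without the lowest quartile, which also removed Mog. Transcription factors went from 2 to 1 in 3 settings, the GC trend removed, the same with the block, and without the lowest quartile. Precursor genes went from 4 to 7 with the GC trend removed and ranged from 2 to 5 with 1 library left out, with 2 called without sham replicate 4 or without HF-HI replicate 5. The genes most like the members kept 5 of 10 with the GC trend removed, and from 5 to 10 with 1 library left out. The HF-HI median r ran from 0.749 to 0.909 with 1 library left out. Of all genes, 1810 were higher and 1864 lower, and 1448 and 2376 with library medians centred, where the median difference was -0.06. The log2 ratios past the threshold were 15 with quantile normalization and with the block, both added after seeing the data, and 17 with the GC trend removed.

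Precision is limited by the spread between mice, about 0.2 on the log2 scale for each member, and depth is known only in relative terms.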
